A study of Mus musculus with 6 samples.

Results

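The 8 keratins described here mark the layers of mouse epidermis. Krt5, Krt14 and Krt15 belong to the basal layer, and Krt1, Krt10, Krt2, Krt77 and Krt80 belong to the suprabasal layers above it. They form a list of named genes with no threshold on their values, and all probes that carry their symbols were used, which gave 11 of 55681 probes for 8 of 21370 named genes. Krt5, Krt10 and Krt2 had 2 probes each, and the brighter probe of a gene is meant where none is named.

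Epidermis of mouse embryos at E16 was compared on 6 arrays of 2 colours, each carrying knockout RNA in one dye and wild-type littermate RNA in the other. The knockouts lacked Sox4 (Sox4 cKO), Sox11 (Sox11 cKO) or both genes (Sox4/11 dcKO, here dcKO), with 2 biological replicates each, so that every genotype is n = 2. The knockout was in Cy5 on replicate 1 and in Cy3 on replicate 2. The strain is labelled 129SvEx:C57BL/6. Per the study's methods, floxed alleles of Sox4 and Sox11 were deleted by a Cre transgene under the Krt14 promoter, brought in from FVB/N mice, so deletion was directed to cells that use this promoter. The floxed parent mice also carried Sox12−/−, and whether the embryos or their control littermates did is not stated in the sources used here. Epidermis was separated from dorsal skin with dispase, and its RNA was amplified before labelling. Because the whole epidermis was lysed, fewer cells of a layer and less RNA per cell cannot be told apart.

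Keratins form filaments as pairs of a type I and a type II chain. Krt14 and Krt15 are type I chains and Krt5 their type II partner in the basal layer, where keratinocytes divide. When a cell leaves that layer it switches to the pair of Krt1 (type II) and Krt10 (type I), which makes these genes standard markers of differentiation in skin. Krt2, a type II chain, is found in the upper layers. Krt77 is a type II relative of Krt1, and Krt80 is a type II chain of differentiating epithelia found near desmosomes.

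The sequence just upstream of the annotated start was available for Krt5, Krt14, Krt10, Krt2 and Krt77 (RefSeq, GRCm38.p6). The 250 bases before the start of 1 basal and 1 suprabasal member are shown, since SOX proteins bind short DNA motifs and these genes are the markers by which the layers are read. They are written 5′ to 3′ on the strand of the gene, with TATAAA in capitals. Krt5 lies at chr15:101712906-101713155 and Krt10 at chr11:99389365-99389614, both on the minus strand.
Krt5: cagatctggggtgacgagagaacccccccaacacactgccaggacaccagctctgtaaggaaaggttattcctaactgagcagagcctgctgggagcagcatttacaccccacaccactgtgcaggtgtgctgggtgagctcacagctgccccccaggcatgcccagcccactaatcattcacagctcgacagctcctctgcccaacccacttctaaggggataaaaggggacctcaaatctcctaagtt
Krt10: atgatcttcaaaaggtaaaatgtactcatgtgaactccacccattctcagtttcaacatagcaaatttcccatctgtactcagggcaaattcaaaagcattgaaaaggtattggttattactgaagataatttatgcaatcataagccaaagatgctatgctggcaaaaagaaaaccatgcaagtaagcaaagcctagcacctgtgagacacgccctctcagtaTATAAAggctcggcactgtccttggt
TATAAA began 26 bases before the Krt10 start and was in none of the other 4 windows. The SOX-type letters ACAAAG and ACAATG, searched on both strands, were in none of the 5 windows. Among all 32851 windows of this length ACAAAG was in 16.5%, ACAATG in 10.7% and TATAAA in 12.4%. The start used for Krt10 lies 8085 bases inside the outer end of its annotated gene span, that for Krt14 1480 bases and that for Krt2 787 bases.

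Each channel had 37.7% to 42.3% of probes well above background. No member spot was saturated and none carried an outlier mark. Of the 11 keratin probes 9 were well above background in both channels of all 6 arrays and the exceptions were both Krt2 probes. The dimmer Sox4 probe was well above background in the wild-type but not in the knockout channel on both Sox4 cKO and both dcKO arrays, and the Sox11 probes lay near background, so they could not check the genotype. Xist was well above background only on replicate 2 of both single knockouts, and Y-linked genes on the other 4 arrays, with knockout and wild type alike on each array. Replicate and sex therefore differ together within both single knockouts.

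Fitted means of the basal keratins lay between −0.34 and 0.26 on the log2 scale in the 3 genotypes, and none of the 3 passed the test (limma, adjusted p under 0.05 over all probes). Passing probes made up 0.833% of all probes in dcKO, against 0.00539% for Sox4 cKO and 0% for Sox11 cKO, so few probes pass this test in the single knockouts in any case. Probes with an unadjusted p under 0.05 made up 9.89% in dcKO, with 6.18% for Sox4 cKO and 7.05% (3923 probes) for Sox11 cKO. By their brighter probes, the members under that level were Krt2 in Sox4 cKO, Krt1 and Krt80 in Sox11 cKO, and Krt80, Krt1, Krt10 and Krt15 in dcKO. The second Krt10 probe was under it in Sox11 cKO and not in dcKO. Values below are log2(knockout/wild type), given for replicate 1 and then replicate 2.

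Krt14, the basal type I chain whose promoter also drives the Cre, read 0.22 and 0.25 in Sox4 cKO, 0.11 and 0.37 in Sox11 cKO and 0.36 and 0.17 in dcKO. It was above 0 on all 6 arrays, and the 3 genotypes overlapped. The fitted means were 0.23, 0.24 and 0.26 (SE 0.136 each), and the interval reached from −0.05 to 0.57 in dcKO (adjusted p = 0.836, 0.762 and 0.583).

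Krt5, the type II partner of Krt14, read 0.15 and −0.13 in Sox4 cKO, 0.13 and 0.27 in Sox11 cKO and 0.18 and −0.06 in dcKO. Replicates lay on both sides of 0 in Sox4 cKO and dcKO. The means were 0.01, 0.20 and 0.06 (SE 0.137), and the 95% interval in dcKO ran from −0.26 to 0.37 (adjusted p = 0.939). The second, dimmer Krt5 probe read −0.60 and 0.30 in Sox11 cKO and 0.39 and 0.38 in dcKO, where its mean was 0.38 (adjusted p = 0.572). The pair of probes thus differed most in Sox11 cKO replicate 1, where they read 0.13 and −0.60.

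Krt15, the other basal type I chain, was below 0 on both dcKO arrays. It read 0.15 and −0.12 in Sox4 cKO, 0.03 and −0.28 in Sox11 cKO and −0.26 and −0.41 in dcKO. The dcKO mean of −0.34 (SE 0.127, interval −0.62 to −0.05) had an adjusted p of 0.428. Krt15 minus Krt14 within an array was −0.62 and −0.58 in dcKO, and Sox4 cKO had −0.07 and −0.37, with −0.09 and −0.65 for Sox11 cKO.

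**Figure D1:**
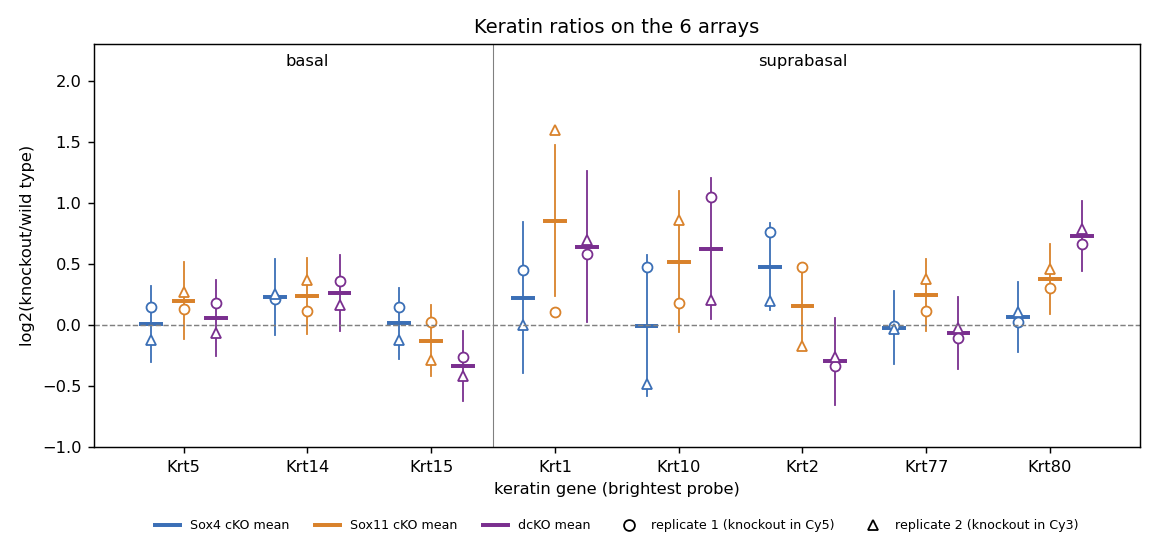
Each symbol is the log2(knockout/wild type) of 1 array for the brightest probe of a keratin, with the fitted mean as a thick bar and its 95% interval as a thin line, by genotype in 3 colours. Basal keratins lie near 0, and among the suprabasal ones Krt80 in dcKO (0.66 and 0.79) has both replicates close together and away from 0, while the Krt1 replicates of Sox11 cKO (0.11 and 1.60) lie far apart.

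Suprabasal keratins spread more widely. Krt80 was the 1 member of 8 that passed the test, and it did so in dcKO alone, where the median of the 5 suprabasal members was 0.63 against −0.01 for all named genes. In Sox11 cKO that median was 0.38 and in Sox4 cKO 0.07, with 0.00 for all named genes in both. None of the 8 members reached the further threshold of an absolute log2 fold change over 1.5, which 0.207% of probes did in dcKO.

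Krt80 read 0.03 and 0.11 in Sox4 cKO, 0.30 and 0.46 in Sox11 cKO and 0.66 and 0.79 in dcKO. It was above 0 on all 6 arrays, and the 3 genotypes did not overlap in their ratios. The share of all probes whose genotypes separate in this way was not counted, so the separation is only described. In dcKO Krt80 rose 1.66-fold over its littermates (log2 0.73, SE 0.126, interval 0.44 to 1.01, adjusted p = 0.0407). The means in Sox4 cKO and Sox11 cKO were 0.07 (adjusted p = 0.964) and 0.38 (interval 0.09 to 0.67, adjusted p = 0.694). The difference of dcKO from Sox4 cKO was 0.66 (interval 0.25 to 1.06, adjusted p = 0.548) and that from Sox11 cKO 0.35 (interval −0.06 to 0.75, adjusted p = 0.734), so neither step in this order passed its own test.

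The dcKO call on Krt80 depended on the settings, although its value stayed between 0.63 and 0.85 on the log2 scale in all 15 alternatives. It was not past the threshold without the replicate block (adjusted p = 0.0927), with the dcKO arrays alone (0.0941), with median centring (0.0722) or with the Feature Extraction log ratio (0.298). Nor was it past the threshold without either Sox11 cKO array (0.0603 for each), without dcKO replicate 1 (0.441) or without dcKO replicate 2 (0.403). The adjusted p was lowest, at 0.00158, with a background offset of 50.

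The wild-type level of Krt80 differed between the arrays. The wild-type level, a log2 channel intensity after scaling across arrays, was 8.10 and 7.44 on the Sox4 cKO arrays, 6.29 and 5.97 on the Sox11 cKO arrays and 7.82 and 7.26 on the dcKO arrays. Both wild types of the Sox11 cKO arrays were thus the lowest of the 6, and the knockout channels followed them, at 6.59 and 6.43 in Sox11 cKO against 8.13 and 7.54 in Sox4 cKO and 8.48 and 8.05 in dcKO. The dcKO levels overlapped those of Sox4 cKO, so the ratio to the littermate on the same array, and not the level across arrays, carries the dcKO result. The probe was dim, with a raw wild-type signal of 77 to 204 in Cy3 and 102 to 230 in Cy5, over median backgrounds of 30 to 32 and 49 to 51.

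Krt1, the type II chain of the suprabasal pair, read 0.45 and −0.00 in Sox4 cKO, 0.11 and 1.60 in Sox11 cKO and 0.59 and 0.70 in dcKO. Both dcKO replicates were above 0 and close together, whereas the Sox11 cKO replicates were the most unequal pair of any member. The means were 0.23, 0.85 and 0.64 (SE 0.271), with an interval of 0.02 to 1.26 in dcKO (adjusted p = 0.936, 0.694 and 0.487). Without Sox11 cKO replicate 2 the Sox11 cKO mean was 0.02, and without replicate 1 it was 1.68. Such a fit keeps 1 array of the genotype and shifts its reading by a dye coefficient estimated from the other arrays.

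The high Krt1 ratio of Sox11 cKO replicate 2 went with a low wild type. The wild-type level of Krt1 was 14.42 on that array and between 15.44 and 15.86 on the other 5. The knockout level on the same array, 16.02, lay inside the range of the other knockout samples, 15.55 to 16.26. A wild type that was lowest of the 6 on this array was seen in 8 of the 9 keratin probes well above background throughout, and for the remaining probe, of Krt15, it was the highest (14.75 against 14.28 to 14.55).

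Krt10, the type I partner of Krt1, read 0.48 and −0.48 in Sox4 cKO, 0.18 and 0.86 in Sox11 cKO and 1.04 and 0.21 in dcKO. Replicates lay on opposite sides of 0 in Sox4 cKO and were above 0 in both other genotypes. The means were −0.00, 0.52 and 0.63 (SE 0.253), with an interval of 0.05 to 1.20 in dcKO (adjusted p = 0.999, 0.728 and 0.467). The second Krt10 probe read 0.76 and −0.37, 0.49 and 0.90, and 0.93 and 0.10 on the same arrays, which kept the order of the replicates in every genotype. That probe had means of 0.19, 0.70 and 0.51 (adjusted p = 0.937, 0.694 and 0.522), with an interval of 0.17 to 1.23 in Sox11 cKO and −0.02 to 1.04 in dcKO. By the brighter probe, the Krt10 mean of Sox11 cKO was −0.27 without replicate 2 and 1.31 without replicate 1. That of dcKO was 0.27 without replicate 1 and 0.98 without replicate 2. The dye coefficient of these fits moved them away from the readings, so −0.27 does not mean that an array was below 0.

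The partners Krt1 and Krt10 traded places between the dcKO replicates. Krt1 minus Krt10 was −0.46 on replicate 1 and 0.49 on replicate 2. The mean of Krt1 and Krt10 lay above the mean of Krt5 and Krt14 by 0.55 and 0.40 on the dcKO arrays and by 0.02 and 0.91 on the Sox11 cKO arrays. On the Sox4 cKO arrays it lay above by 0.28 and then below (−0.31). The suprabasal pair was therefore above the basal pair on both arrays of dcKO and Sox11 cKO and on 1 of 2 arrays of Sox4 cKO.

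**Figure D2:**
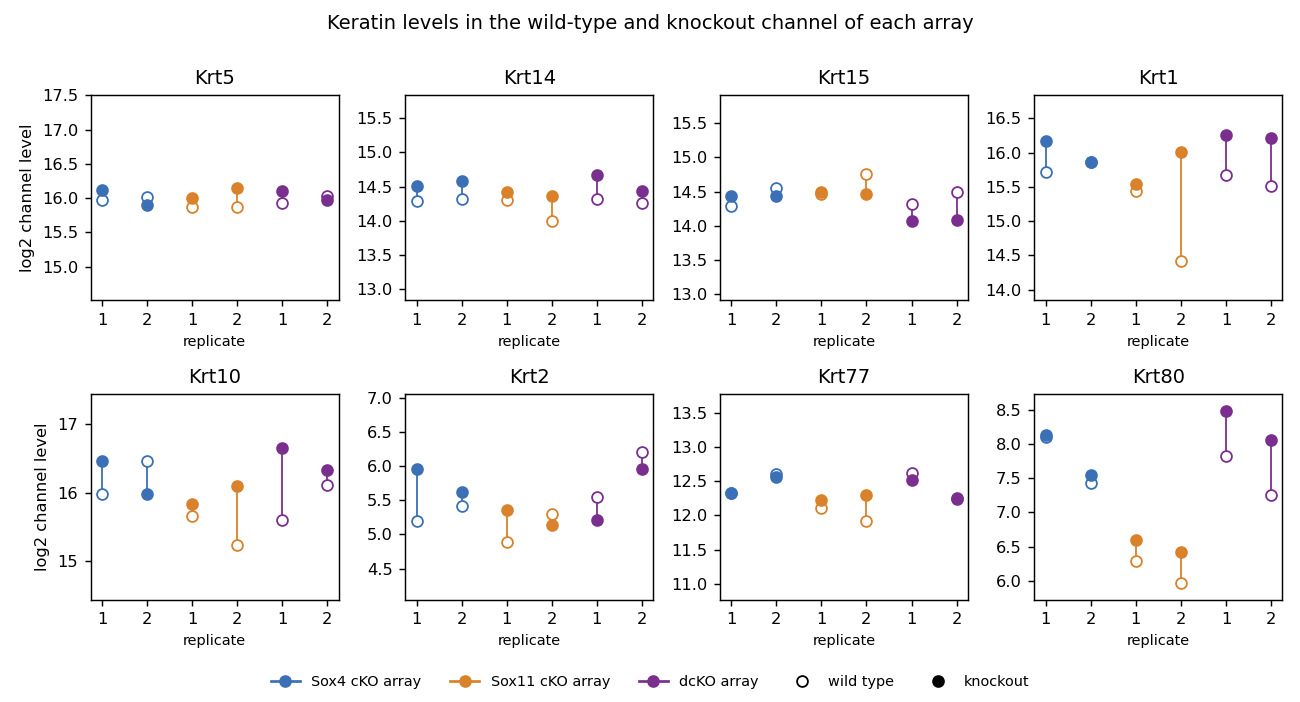
Log2 channel level of each keratin in the wild type (open) and the knockout (filled) of each array, joined by a line, with all 8 panels spanning the same number of log2 units around their own midpoint. The brighter Krt5 probe hardly moves, and the dimmer probe is not shown. Krt1 has a wild type of 14.42 on Sox11 cKO replicate 2 below all others, and Krt80 is low in both channels of the Sox11 cKO arrays.

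Krt77, related to Krt1, read −0.01 and −0.03 in Sox4 cKO, 0.11 and 0.38 in Sox11 cKO and −0.11 and −0.02 in dcKO. It lay above 0 in Sox11 cKO and slightly below 0 in both other genotypes. The means were −0.02, 0.25 and −0.06 (SE 0.130, adjusted p = 0.992, 0.743 and 0.927).

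Krt2, of the upper layers, was near background at this stage. Its brighter probe was well above background in 2 of 6 wild-type samples, both on dcKO arrays, and in 4 of 6 knockout samples, and its second probe in none. The ratios were 0.76 and 0.20 in Sox4 cKO, 0.47 and −0.17 in Sox11 cKO and −0.33 and −0.26 in dcKO. No wild type of the Sox4 cKO and Sox11 cKO arrays was well above background, and in Sox11 cKO and dcKO only 1 of 2 knockout samples was, so no fold is given for Krt2. It passed in no genotype (adjusted p = 0.785, 0.880 and 0.594). The second probe had a mean of −0.10 in Sox4 cKO and −0.08 in dcKO.

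The spread of the wild-type levels depended on the probe and on the scaling. After scaling, over the 6 wild-type samples Krt5 ranged from 15.87 to 16.04 (median 15.95, SD 0.07), Krt14 from 14.00 to 14.33 (SD 0.12) and Krt15 from 14.28 to 14.75 (SD 0.17). The suprabasal members had Krt1 from 14.42 to 15.86 (SD 0.52), Krt10 from 15.23 to 16.46 (SD 0.44) and Krt77 from 11.91 to 12.63 (SD 0.28). Krt80 had a range of 2.13 (SD 0.85). The second Krt5 probe had an SD of 0.38, above that of Krt77. Without loess and scaling between channels the SDs were 0.578 for Krt5, 0.678 for Krt15, 0.576 for Krt1, 0.747 for Krt10, 0.484 for Krt77 and 0.740 for Krt80, so the order of the members was not the same. The wild types of replicate 1 were read in Cy3 and those of replicate 2 in Cy5, so dye and sample spread are mixed. Levels of different probes cannot be set against each other, since each probe binds with its own strength.

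No member passed any of 4 contrasts that set genotypes against each other within the model. Passing probes made up 0.147% of all probes for dcKO minus Sox4 cKO, 0.163% for dcKO minus Sox11 cKO, 0.00180% for Sox4 cKO minus Sox11 cKO and 0.0880% for dcKO minus the sum of both single knockouts. Krt80 differed by 0.66 between dcKO and Sox4 cKO, as given above. The fitted value for the brighter Krt2 probe was −0.77 (adjusted p = 0.592), but it rests on samples that were not well above background, and the second Krt2 probe gave 0.02. For Krt14 the differences from Sox4 cKO and Sox11 cKO were 0.03 and 0.02, with intervals from −0.41 to 0.47 and from −0.42 to 0.46. For Krt1 the difference of Sox4 cKO from Sox11 cKO was −0.63 (SE 0.384, adjusted p = 0.941), and it was 0.20 without Sox11 cKO replicate 2. Against the sum of the single knockouts, Krt80 in dcKO differed by 0.28 (interval −0.22 to 0.78, adjusted p = 0.888).

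**Figure D3:**
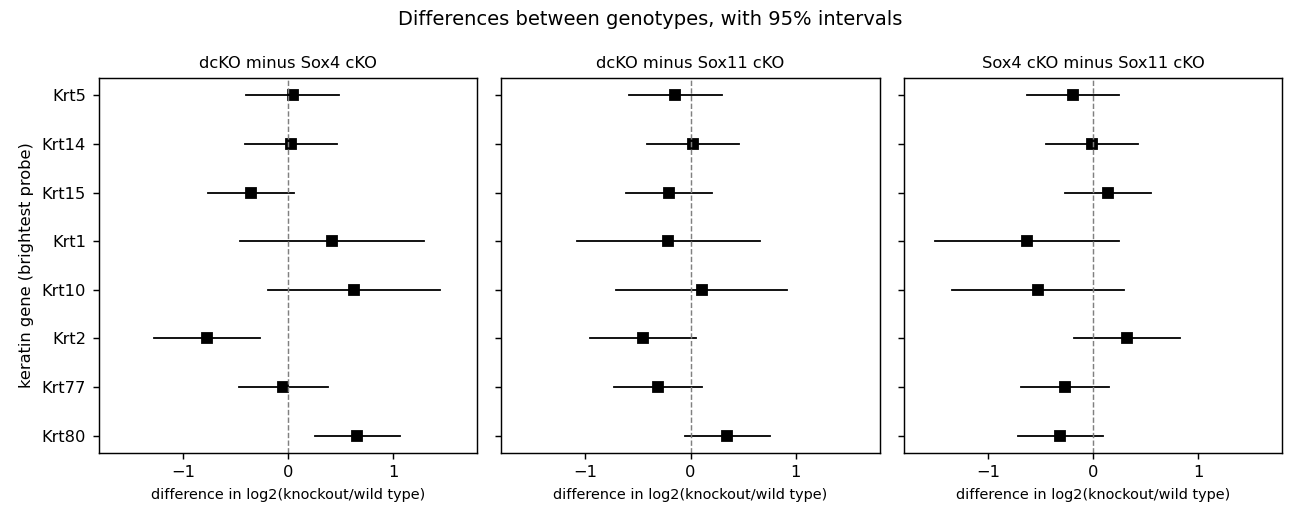
Fitted differences in log2(knockout/wild type) between genotypes for the 8 keratins (squares) with 95% intervals (lines), in 1 panel per pair of genotypes. The intervals of Krt2 and Krt80 leave out 0 for dcKO minus Sox4 cKO, although no difference passed the adjusted test and Krt2 was near background, and Krt1 and Krt10 have the widest intervals.

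Counted over arrays, 6 of 8 members read above 0 on both Sox11 cKO arrays, against 22.5% of all probes. In Sox4 cKO it was 3 of 8 (all probes 23.0%) and in dcKO 4 of 8 (all probes 24.6%). The 4 of dcKO were Krt14, Krt1, Krt10 and Krt80, and Krt15, Krt2 and Krt77 were below 0 on both dcKO arrays. The 8 genes share their arrays and wild types, so these counts are not independent of each other.

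No other gene listed for the same layers passed the test. Of 12 measured basal layer genes (integrins, laminin chains and their partners) none passed in any genotype, and the dcKO median was −0.10. Dst, a linker of keratin filaments to hemidesmosomes, read −0.77 and −0.41 in dcKO (mean −0.59, adjusted p = 0.106). Lama3, Lamb3 and Plec had dcKO means of −0.23, 0.23 and −0.13. Of 17 spinous layer genes none passed either, and the dcKO median was 0.10, against 0.07 for Sox4 cKO and 0.26 for Sox11 cKO. At an unadjusted p under 0.05, 6 of the 17 were higher and 1 lower in Sox11 cKO, and 4 were higher in dcKO. Over all probes 7.05% in Sox11 cKO and 9.89% in dcKO were under that level, in either direction. The largest dcKO values among them were Dsc1, a desmosomal cadherin, at 0.62 (adjusted p = 0.0849), Sbsn at 0.41, Lgals7 at 0.41 and Ovol1, a transcription factor, at −0.40. The median of the spinous list was 0.52 on Sox11 cKO replicate 2 and 0.01 on replicate 1, the array order also seen in Krt1 and Krt10.

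The 11 keratin filament partners, which are plakins and plakophilins with junction plakoglobin (Jup) and trichoplein (Tchp), had a dcKO median of −0.02, against 0.10 for Sox4 cKO and 0.12 for Sox11 cKO, and none passed. Beside Dst, the members with the largest dcKO values were Evpl at −0.29, Pkp1 at 0.24 and Tchp at −0.20. Several genes stand in more than 1 of these lists, so the lists are not independent.

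Among 45 other keratins with a named probe, 3 passed upward and 3 downward in dcKO and none in a single knockout, with medians of 0.08, −0.05 and −0.05. Krt72, a keratin of the inner root sheath, read 2.57 and 2.55 in dcKO (mean 2.56, adjusted p = 9.6e-05) and was well above background in all 6 wild-type samples. Of those that passed downward, Krt17 stood at −1.37 (adjusted p = 0.00507), Krt19 at −1.40 (adjusted p = 0.0177) and Krt4 at −1.497 (adjusted p = 0.00174). The other upward keratins, named after their values were seen, were Krt23 at 1.35 (adjusted p = 0.0216) and Krt16, of activated and palmar epidermis, at 1.30 (adjusted p = 0.0482). Each of these 6 moved further in dcKO than any of the 8 layer keratins.

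**Figure D4:**
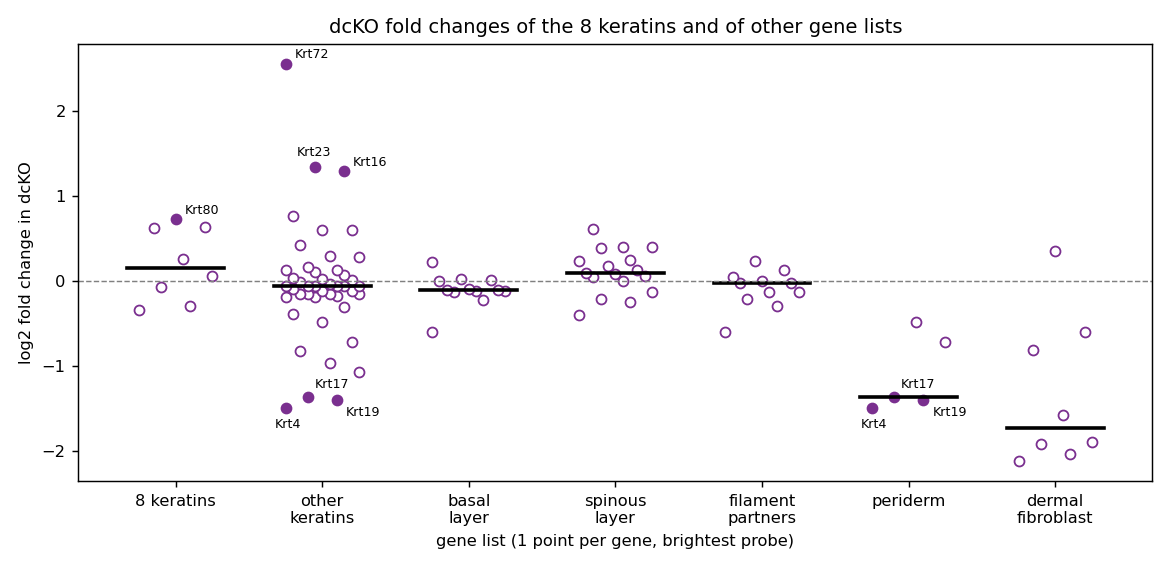
Log2 fold changes in dcKO of the 8 keratins and of genes in 6 other lists, with 1 point per gene, filled where the adjusted p was under 0.05, and the list median as a line. Krt80 is the filled point among the 8 keratins, Krt72 stands at 2.56, and the medians of the basal, spinous and partner lists lie between −0.10 and 0.10.

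Markers of other cells moved in the same samples. Dermal fibroblast genes (8 measured, 8 of 8 well above background on dcKO arrays) had medians of −1.71 and −1.53 on the dcKO arrays, with none passing, of −3.00 and 0.87 in Sox4 cKO and of 1.11 and −0.68 in Sox11 cKO. The summed channel level of all 8 was 9802 and 8156 in the dcKO samples against 13433 and 9166 in their wild types. Over all 6 wild types it ranged from 6726 to 22735. On both dcKO arrays 7 of the 8 were below 0, and Dcn was above it (0.41 and 0.29, named after its values were seen). The sum thus mixes opposite changes. All 5 periderm keratins were below 0 on both dcKO arrays, and 3 of them passed (Krt4, Krt17 and Krt19). These 3 are the downward genes already counted among the other keratins. The summed level of the 5 was 3156 and 3141 against 6934 and 7554 in the wild types of these arrays. In Sox11 cKO the periderm median was −1.19 and none passed, with sums of 7179 and 9228 in the knockouts. An unadjusted p under 0.05 was found for 4 of the 5 (all probes 7.05%), with Krt4 at −1.48 (adjusted p = 0.0951). The periderm median for Sox4 cKO was 0.42. There Krt17 went the other way (−0.91 and −0.97, mean −0.94), while the remaining periderm keratins had means of 0.37 to 0.98. Krt17 also stood apart for Sox11 cKO, with a mean of 0.02 against −1.48 to −1.10 for the rest. A median of this list therefore does not describe Krt17 in either single knockout. The wild types of the Sox11 cKO arrays, lowest of all for Krt80, had periderm sums of 13148 and 13157, while those of the other 4 arrays had 6934 to 7952. Red blood cell genes (5 measured) had medians of −0.44 and 1.28 on the dcKO arrays. In the wild type of Sox11 cKO replicate 2, lowest for Krt1, the summed level of the 17 spinous genes was 147452 against 193584 to 238894 in the other wild types. Endothelial and immune markers had sums of 255 to 295 and 189 to 260 in the wild types. Their detection differed by gene, with Kdr and Tyrobp well above background in 6 of 6 wild types and Tek and Ptprc in 0. The part of these cells in the Krt80, Krt1 and Krt10 values was not tested. The 6 keratinocyte markers were well above background in every genotype, but Krt5 and Krt14 are among them, so this list is not separate from the 8 keratins. Its dcKO median was 0.05, with means from −0.34 for Epcam to 0.26 for Krt14. The 6 proliferation genes had a dcKO median of −0.19 with none passing. Melanocyte genes (5 measured) had a dcKO median of −0.18 and skeletal muscle genes (6 measured) of −0.59, with none passing in either list. In Sox4 cKO the muscle median was −1.15, at −2.52 on replicate 1 and 0.09 on replicate 2, with none passing. At an unadjusted p under 0.05, 4 of 6 were lower (all probes 6.18%, in either direction). Several of these genes lay near background, with wild types well above it ranging from 0 of 6 for Myog to 5 of 6 for Myl1. Of 6 hair follicle bud genes Sostdc1 alone passed in dcKO (−0.79, adjusted p = 0.0333). The dcKO median of this list was −0.08, and 3 of the 6 had means above 0.

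The genes whose ratios ran closest to a basal and a suprabasal keratin were looked up among 10378 genes well above background in both channels of all arrays. Closeness was the root mean square difference of log2(knockout/wild type) over the 6 arrays. For Krt14 the nearest were Epg5, Sema3c, Tti1, Fer and Tollip, with differences of 0.06 to 0.09 against a median of 0.33 over all genes. Their ratios, like that of Krt14, stayed between 0.02 and 0.42 on every array, so closeness here means little movement.

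For Krt1 the nearest were Adh1, Urah, Ces2g, Cstdc5 and Stfa1, with differences of 0.14 to 0.18 against a median of 0.80. Adh1 is an alcohol dehydrogenase that oxidises retinol, and Cstdc5 and Stfa1 belong to the stefin type of cysteine protease inhibitors. All 5 read between 1.43 and 1.84 on Sox11 cKO replicate 2, the array on which Krt1 read 1.60, and between 0.37 and 0.89 on the dcKO arrays. The likeness thus turned largely on 1 array.

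**Figure D5:**
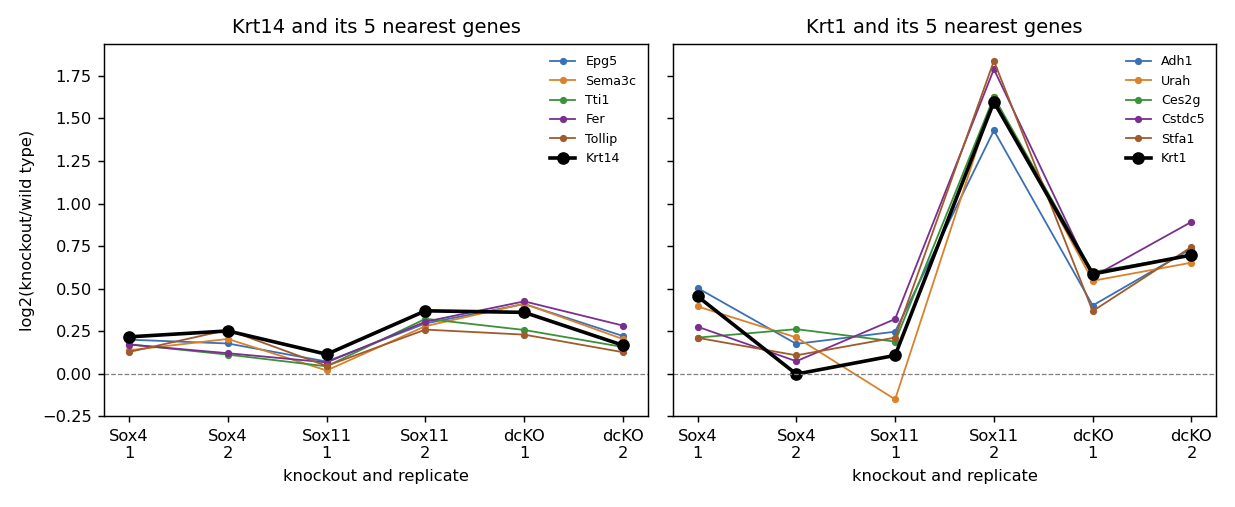
Log2(knockout/wild type) on each of the 6 arrays for Krt14 and for Krt1 (black) and the 5 genes nearest to each (colours). The Krt14 group stays between 0.02 and 0.42, and the Krt1 group peaks on Sox11 cKO replicate 2, at 1.43 to 1.84.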

How the data were processed

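Two-colour Agilent arrays of knockout against wild-type littermate epidermis were analysed. Per the labels the images were read with Agilent Feature Extraction 11.0.1.1 and processed with limma 3.5. The authors deposited scanner files with the median intensity of each spot in Cy5 and Cy3 and its local background, not normalized, and with a log10 ratio of Cy5 over Cy3 from Feature Extraction. The deposited series table holds the log2 ratio, knockout divided by wild type. In their analysis the authors used normexp background correction with an offset of 16 and loess normalization, and removed a colour effect with ComBat. Which of these steps the table holds is not stated. With normexp and loess recomputed here from the scanner files, the table matched with a slope of 1 and a largest difference of 3.18e-04, so it holds no colour adjustment.

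The 8 keratins, the gene lists and the comparisons were chosen with earlier results of these data known. Probes were named through RefSeq accessions (GRCm38.p6), which gave a symbol to 28341 of 55681 probes, and spots of a probe were averaged. The table's values were fitted in R 4.3.3 with limma 3.58.1 (lmFit and eBayes, two-sided, Benjamini-Hochberg adjustment over all 55681 probes, 6.65 prior and 2 residual degrees of freedom) with a coefficient per genotype and a dye coefficient over all 6 arrays. A probe passed at an adjusted p under 0.05. The dye orientation coincides with the replicate number, so the dye coefficient is also the replicate block. Arrays that share a number deviated together from their genotype means (r = 0.26, 0.31 and 0.33 over probes). They also share a dye orientation, and the table holds no colour adjustment, so a dye effect alone can give such values. The correlation therefore cannot show a pairing of samples by number, and the coefficient rests on the labelled dyes. The fit was tested on simulated data.

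Levels are log2 channel intensities after normexp, loess and Aquantile scaling. The brightest probe stands for a gene, all probes of the 8 keratins are given, and of each other list the text names the 4 genes with the largest absolute dcKO change among those well above background on both dcKO arrays. In the periderm, dermal and other marker lists only counts and medians are given where no gene is named. Hbb-bs had no named probe. Alternatives were other background corrections and normalizations, no replicate block, a filter on dim probes, each array left out, and the mean of a gene's probes. The number of arrays limits the precision.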

Additional observations from a re-analysis of the deposited data

Results flagged for a closer look

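Over the 6 wild-type samples the level of Krt14 and of Krt1 had 1 sample far from the rest, in both cases the wild type of Sox11 cKO replicate 2, at 14.00 for Krt14 (the others 14.27 to 14.33) and 14.42 for Krt1 (the others 15.44 to 15.86). This check marks about 1 in 20 groups by chance, the 11 probes share the same 6 samples, and the wild types were read in different dyes.

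Krt2 was above 0 on both Sox4 cKO arrays and below 0 on both dcKO arrays, a difference of 0.77 whose test had an adjusted p of 0.592. This probe was well above background in neither wild type of the Sox4 cKO arrays and in 1 of 2 dcKO samples, and the second Krt2 probe gave a difference of 0.02 for dcKO minus Sox4 cKO. Krt77 was above 0 on both Sox11 cKO arrays and below 0 on both arrays of Sox4 cKO and of dcKO, with differences of 0.27 (adjusted p = 0.943) and 0.31 (adjusted p = 0.767).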

How the results depend on the processing

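The count of members passing in dcKO, 1 in the reported fit, was 0 with the Feature Extraction log ratio, with median centring, without the replicate block and with the dcKO arrays alone, and 0 to 1 when 1 array was left out. In the single knockouts and in the 4 differences between genotypes no member passed under any alternative. Without the replicate block, which pairs arrays by number and dye, Krt80 in dcKO had an adjusted p of 0.0927, and no other call on a member changed.

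Values that changed sign in any genotype passed the test in neither form. In Sox4 cKO, Krt10 was 0.25 with median centring and 0.0944 as the mean of its probes, and Krt77 was 0.18 with median centring. When 1 array was left out, Sox4 cKO values ran from −0.10 to 0.12 for Krt5, −0.00244 to 0.0312 for Krt15, −0.40 to 0.85 for Krt1, −0.44 to 0.44 for Krt10 and −0.12 to 0.0824 for Krt77. Sox11 cKO values ran from −0.0446 to 0.35 for Krt2 and −0.27 to 1.31 for Krt10, and dcKO values from −0.0323 to 0.15 for Krt5 and −0.63 to 0.0419 for Krt2. With 1 array left out, the lone array of that genotype was assumed to vary like the others. Its reading was also shifted by a dye coefficient estimated from the other arrays. A sign could therefore change although both arrays read on the same side of 0, as for Krt10 in Sox11 cKO and Krt2 in dcKO. Krt2 and Krt80 are limited by their low signal over background.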
